A study of Homo sapiens with 6 samples.

Results

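The autophagy machinery was followed as a set of 45 genes, chosen by name as the factors that start autophagosomes, join the ATG8 proteins to lipid, deliver cargo and control the pathway. All 45 were found among the 67140 Ensembl genes of the deposited table, and all 45 passed the filter on low counts. The libraries were made from CAPAN-2 cells, a long-established line grown from a human pancreatic ductal adenocarcinoma. There were 3 libraries from cells with SIRT4 overexpression and 3 from control cells without it. SIRT4 is a mitochondrial sirtuin. The vector, the promoter that drives SIRT4, the number of clones, the culture medium and the time of sampling are not stated in the labels. The labels do not say whether replicates were separate cultures, so the p-values rest on a spread between libraries that could be technical alone. The stated question is which genes change in CAPAN-2 cells that overexpress SIRT4.

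Macroautophagy encloses cytoplasm in a double membrane and carries it to the lysosome. The ULK kinase complex starts the process when nutrients or energy run short, and a class III PI3-kinase complex with BECN1 then marks the membrane with phosphatidylinositol 3-phosphate. ATG9 vesicles and ATG2 lipid transfer proteins supply the growing membrane, and a ubiquitin-like conjugation system attaches ATG8 proteins (LC3 and GABARAP) to it. Receptors such as SQSTM1 (p62) bind both cargo and ATG8 proteins, and TFEB and TFE3 activate genes of autophagy and the lysosome. Pancreatic ductal adenocarcinoma is known for high basal autophagy.

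Estimated counts totalled 50945991 to 65156041 per library. Levels are given as CPM, the estimated count scaled to the TMM-adjusted library total, and a gene passed the test at a Benjamini-Hochberg adjusted p under 0.05 over all 20786 genes tested with edgeR. SIRT4 itself stood at 3.3, 2.79 and 3.6 CPM in the SIRT4 libraries and at 2.46, 1.96 and 1.83 CPM in controls. The groups did not overlap, but the log2 fold change of 0.63 (SE 0.21) did not pass (edgeR adjusted p = 0.0752). Of 9 ductal markers tested, KRT8, KRT18 and KRT19 rose, SOX9 fell and 5 did not pass. Summed over 10 ductal markers, levels were 4542 to 4673 CPM in SIRT4 libraries and 2417 to 3064 CPM in controls. Summed fibroblast markers (8 genes, with COL1A2, DCN and FAP at 0 throughout) ran from 188 to 194 CPM in SIRT4 libraries and from 182 to 201 CPM in controls. The most abundant fibroblast marker alone averaged 172.25 CPM over the groups, so that sum was mostly a single gene. The 6 leukocyte markers summed to 4.48 to 5.56 CPM in SIRT4 libraries and 2.81 to 3.81 CPM in controls, with CD3E at 0. The 5 endothelial markers stayed at or under 1.95 CPM in every library, and the 6 acinar and endocrine markers at or under 0.388 CPM. The part of these marker levels in the results was not tested.

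Of the 45 genes, 7 fell in SIRT4 libraries and none rose. The 7 were ULK1 and RB1CC1 of the initiating kinase complex, the lipid transfer genes ATG2A and ATG2B, the protease gene ATG4A, the cargo receptor gene SQSTM1 and the tethering gene EPG5. These are 15.6% of the set, against 7.67% of all tested genes called lower, and none against 9.38% called higher. Every member had a mean of at least 11.6 CPM. Of all tested genes, 10136 lay within the members' range of mean CPM, so these shares do not compare genes of like abundance. At an unadjusted p under 0.05 by edgeR, 12 members were lower and 4 higher (35.6% in all, against 30.2% of all tested genes), and DESeq2 and limma-voom each called 8 lower and none higher. The median log2 fold change of the 45 was -0.06, close to the -0.02 of all tested genes. Their median absolute log2 fold change was 0.16, against 0.27 for all tested genes, which include genes scarcer than any member. Groups did not overlap for 17 members (37.6% of all tested genes did not overlap either). In all, 5 of the 7 (ULK1, RB1CC1, ATG2A, ATG2B and SQSTM1) were called under each of the 15 alternative settings. ATG4A and EPG5 were not, and the count of lower members ran from 5 to 7 when each library was left out in turn. In bulk RNA, a smaller number of expressing cells and less RNA per cell cannot be told apart.

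**Figure D1:**
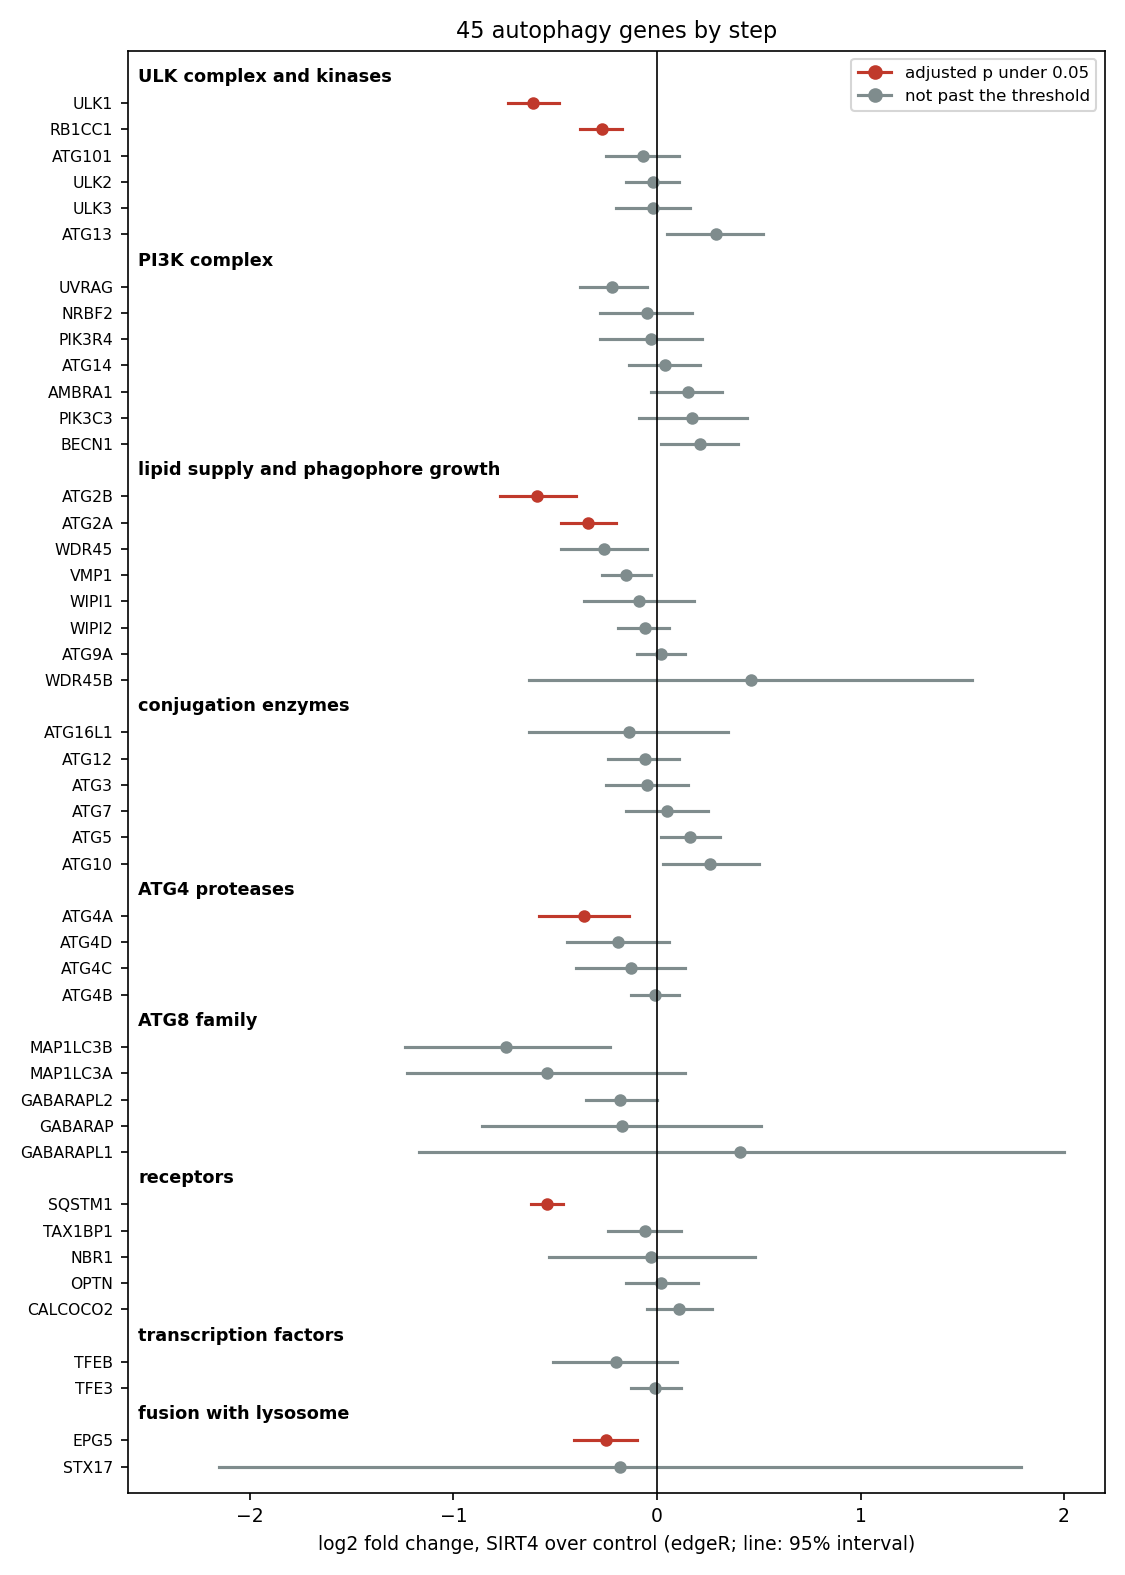
Log2 fold change (x axis, SIRT4 over control, edgeR) of each of the 45 autophagy genes, grouped by step (y axis); points are estimates and lines 95% intervals, 3 libraries per group. The 7 genes past the threshold, in red, all lie left of 0, while the intervals of STX17, GABARAPL1 and WDR45B are the widest.

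In the initiating kinase group, 2 of 6 genes fell and none rose. Of all tested genes, 7.67% were called lower and 9.38% higher. Steps hold 2 to 8 genes, and no step was tested against these shares. ULK1 encodes the serine/threonine kinase that responds to AMPK and mTORC1. Its level was 199, 195 and 210.1 CPM in SIRT4 libraries, against 322, 288 and 310.2 CPM in controls. Every SIRT4 library was below every control, by a log2 fold change of -0.61 (SE 0.05, edgeR adjusted p = 0.000295). RB1CC1 (GRCh38 chromosome 8, 52622456 to 52745843, minus strand, GENCODE 29) encodes FIP200, the scaffold of the complex. Its level was 103, 102 and 105 CPM in SIRT4 libraries, against 123, 125 and 127 CPM in controls. The groups were tight and well apart, with a log2 fold change of -0.27 (SE 0.05, edgeR adjusted p = 0.00525).

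The other members of that group did not pass. The paralogue ULK2, which can stand in for ULK1, was at 51.2, 53.8 and 52.5 CPM in SIRT4 libraries and 53.6, 53.8 and 51.9 CPM in controls. Its log2 fold change was -0.02, with a 95% interval from -0.15 to 0.11. ULK3, a related kinase outside the core complex, had an interval from -0.20 to 0.16, and ATG101, which binds and stabilises ATG13, from -0.25 to 0.11. ATG13, the regulatory subunit, had 90.1, 90.6 and 88.8 CPM in SIRT4 libraries and 77.1, 61.7 and 82.4 CPM in controls. All 3 SIRT4 values lay above the controls, whose spread was wide (log2 fold change 0.29, SE 0.10, edgeR adjusted p = 0.0978). Without control replicate 2, the lowest, the log2 fold change of ATG13 was 0.17 (edgeR adjusted p = 0.110). Per kilobase of annotated exon, a length that counts every isoform and so understates levels, ULK1 was the most abundant of the 6, at 26.5 CPM per kb in SIRT4 libraries and 40.4 in controls, and ULK2 the least, at 5.33 in SIRT4 libraries and 5.39 in controls.

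ULK1 lies on GRCh38 chromosome 12 (131894651 to 131923167, plus strand) in GENCODE 29. RefSeq promoter windows, the 250 bases before a RefSeq gene start, were matched to 38 of the 45 members (49 windows), and those of ULK1 and ULK2 are shown as a pair of paralogues of which ULK1 fell and ULK2 did not pass. Both are from RefSeq on GRCh38.p14, at chr12:131894372-131894621 (plus strand) for ULK1 and chr17:19867937-19868186 (minus strand) for ULK2. Capitals mark GC boxes, the motif GGGCGG on either strand, which Sp-family factors bind.
ULK1: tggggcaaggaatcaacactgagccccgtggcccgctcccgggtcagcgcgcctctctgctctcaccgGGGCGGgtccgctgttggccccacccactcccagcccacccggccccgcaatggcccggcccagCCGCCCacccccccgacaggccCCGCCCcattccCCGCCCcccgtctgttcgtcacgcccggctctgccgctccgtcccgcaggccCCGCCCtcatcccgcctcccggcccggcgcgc
ULK2: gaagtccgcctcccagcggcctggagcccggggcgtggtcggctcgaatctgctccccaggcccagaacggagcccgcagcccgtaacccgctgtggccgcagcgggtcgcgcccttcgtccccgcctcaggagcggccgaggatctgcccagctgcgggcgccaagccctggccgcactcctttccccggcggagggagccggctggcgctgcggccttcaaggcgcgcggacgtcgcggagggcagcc
The ULK1 window held 5 GC boxes at 78.0% G+C, and the ULK2 window none at 76.0% G+C. Counts varied among other members, with 9 for WIPI1, which was not called, and 4, 1 and 0 for the lower genes ATG2B, ATG2A and ATG4A. The windows of SQSTM1, also lower, held 2, 3 and 4. Of the 5 lower members with a window, 4 had a GC box. A link between GC boxes and the calls was not tested. A GC box was found in 34 of the 49 member windows (28 of the 38 members) and in 42.6% of all 35116 windows of this length. Median G+C was 62.8% over member windows and 58.0% over all windows. The part of G+C in these shares was not tested. The palindromic E-box CACGTG, the core of sites that TFEB and TFE3 bind, was in 4 member windows (ATG3, ATG14, NRBF2 and ULK3) and in 6.34% of all windows. Neither the E-box, nor the amino acid response motif TGATGNAA, nor the antioxidant response motif TGACNNNGC, nor the AP-1 motif TGANTCA was found on either strand for the 5 lower members with a window. Of all windows, 3.14% held the amino acid response motif, 10.9% the antioxidant motif and 6.57% the AP-1 motif. A stretch can match the last of these together with the antioxidant motif. Of the 49 member windows, 0 held the amino acid response motif, 4 the antioxidant motif and 2 the AP-1 motif. With 7 windows for the 5 lower members, the absence of motifs this uncommon shows little. The ETS motif CGGAAGT was in 9 member windows, ATG2B among them, and in 5.69% of all windows.

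None of the 7 genes of the PI3-kinase step passed by edgeR, DESeq2 or limma-voom. At an unadjusted p under 0.05 by edgeR 1 was higher and 1 lower, against 30.2% of all tested genes in either direction. BECN1, the scaffold of the complex, was at 39.4, 40.5 and 37.1 CPM in SIRT4 libraries and at 34.2, 30.8 and 36.3 CPM in controls. The SIRT4 values were all above the controls, by a log2 fold change of 0.21 (SE 0.08, edgeR adjusted p = 0.130). UVRAG, the BECN1 partner of the endosomal form of the complex, had 41.2, 43.9 and 38.9 CPM in SIRT4 libraries and 45.9, 48.7 and 49.3 CPM in controls. It lay lower in each SIRT4 library, by a log2 fold change of -0.22, and had the smallest p of the step (SE 0.07, edgeR adjusted p = 0.0760). ATG14, the partner of the autophagic form, was at 21.4, 22.5 and 21.8 CPM in SIRT4 libraries and 21.7, 21.6 and 20.8 CPM in controls. For the catalytic subunit PIK3C3, its regulatory kinase PIK3R4, the BECN1-binding AMBRA1 and the accessory NRBF2, log2 fold changes ran from -0.05 to 0.17. Per kilobase of exon, PIK3C3 was the scarcest of the step, at 1.18 CPM in SIRT4 libraries and 1.04 in controls.

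Among the genes of membrane supply, the paralogues ATG2A and ATG2B both fell. They encode the bridges that move lipid from the endoplasmic reticulum to the phagophore. ATG2B was at 16.0, 15.1 and 15.4 CPM in SIRT4 libraries, against 23.6, 23.6 and 22.8 CPM in controls. The drop was seen in every library, with a log2 fold change of -0.59 (SE 0.08, edgeR adjusted p = 0.00217). GSKIP overlaps 419 bases of ATG2B exons, 2.8% of them, on the opposite strand, and the strand setting of the counting is not given. GSKIP had a log2 fold change of -0.57 (SE 0.40, edgeR adjusted p = 0.418). ATG2A was at 72.2, 74.8 and 75.9 CPM in SIRT4 libraries, against 98.2, 88.3 and 94.9 CPM in controls (log2 fold change -0.34, SE 0.06, edgeR adjusted p = 0.00658). Per kilobase of exon, ATG2A stood at 9.44 CPM in SIRT4 libraries and 11.9 in controls, and ATG2B at 1.05 in SIRT4 libraries and 1.58 in controls, so ATG2A was the more abundant in both groups.

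ATG2A lies on GRCh38 chromosome 11 (64894546 to 64917248, minus strand) and ATG2B on chromosome 14 (96279202 to 96363870, minus strand). The part of the ATG2A promoter window outside annotated exons, from RefSeq on GRCh38.p14 at chr11:64917249-64917459 (minus strand), is shown because it differs from ULK1 in holding CCAAT boxes. Capitals mark the motif CCAAT and the GC box, on either strand.
ATG2A: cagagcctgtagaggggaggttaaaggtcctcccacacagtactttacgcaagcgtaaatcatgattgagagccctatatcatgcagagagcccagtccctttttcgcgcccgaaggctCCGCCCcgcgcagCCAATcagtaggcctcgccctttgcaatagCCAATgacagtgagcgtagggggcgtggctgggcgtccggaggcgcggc
The ATG2A window held 1 GC box and 2 CCAAT boxes. CCAAT was found in 14 of the 49 member windows, those of ATG2A and ATG4A among them, and in 32.0% of all windows.

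Among the 8 genes of membrane supply, 2 fell and none rose, against 7.67% and 9.38% of all tested genes. At an unadjusted p under 0.05 by edgeR 4 were lower and none higher, against 30.2% of all tested genes in either direction. The scramblase gene ATG9A was nearly level, at 139, 143 and 147 CPM in SIRT4 libraries and 145, 134 and 146 CPM in controls (log2 fold change 0.02, 95% interval -0.10 to 0.14). ENSG00000284820 shares 1833 bases of ATG9A exons, 38.8% of them, on the same strand. It was at 1.91, 2.77 and 4.08 CPM in SIRT4 libraries and 6.96, 13.3 and 3.39 CPM in controls. Its sum with ATG9A had a log2 fold change of -0.03 (SE 0.05, edgeR adjusted p = 0.702). The phosphoinositide-binding WIPI1 and WIPI2 had log2 fold changes of -0.09 (95% interval -0.36 to 0.18) and -0.06 (-0.19 to 0.06). VMP1, an endoplasmic reticulum scramblase that releases the phagophore, was at 321, 320.5 and 305 CPM in SIRT4 libraries and 334, 374 and 340.0 CPM in controls (log2 fold change -0.15, edgeR adjusted p = 0.0992). WDR45, a WIPI relative, was at 33.7, 33.0 and 29 CPM in SIRT4 libraries and 41.4, 35.5 and 37.9 CPM in controls (log2 fold change -0.26, edgeR adjusted p = 0.0896). Its exons overlap those of PRAF2 on the same strand over 757 bases, and the sum of WDR45 and PRAF2 fell by 0.36 on the log2 scale (SE 0.08, edgeR adjusted p = 0.0159). PRAF2 also fell (log2 fold change -0.44, edgeR adjusted p = 0.0316), so the sum carries its change. WDR45B stood at 199, 207 and 207 CPM in SIRT4 libraries and at 190.2, 191 and 65.3 CPM in controls. The wide interval of its log2 fold change of 0.46 came with control replicate 3, without which the value was 0.10 (edgeR adjusted p = 0.234).

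**Figure D2:**
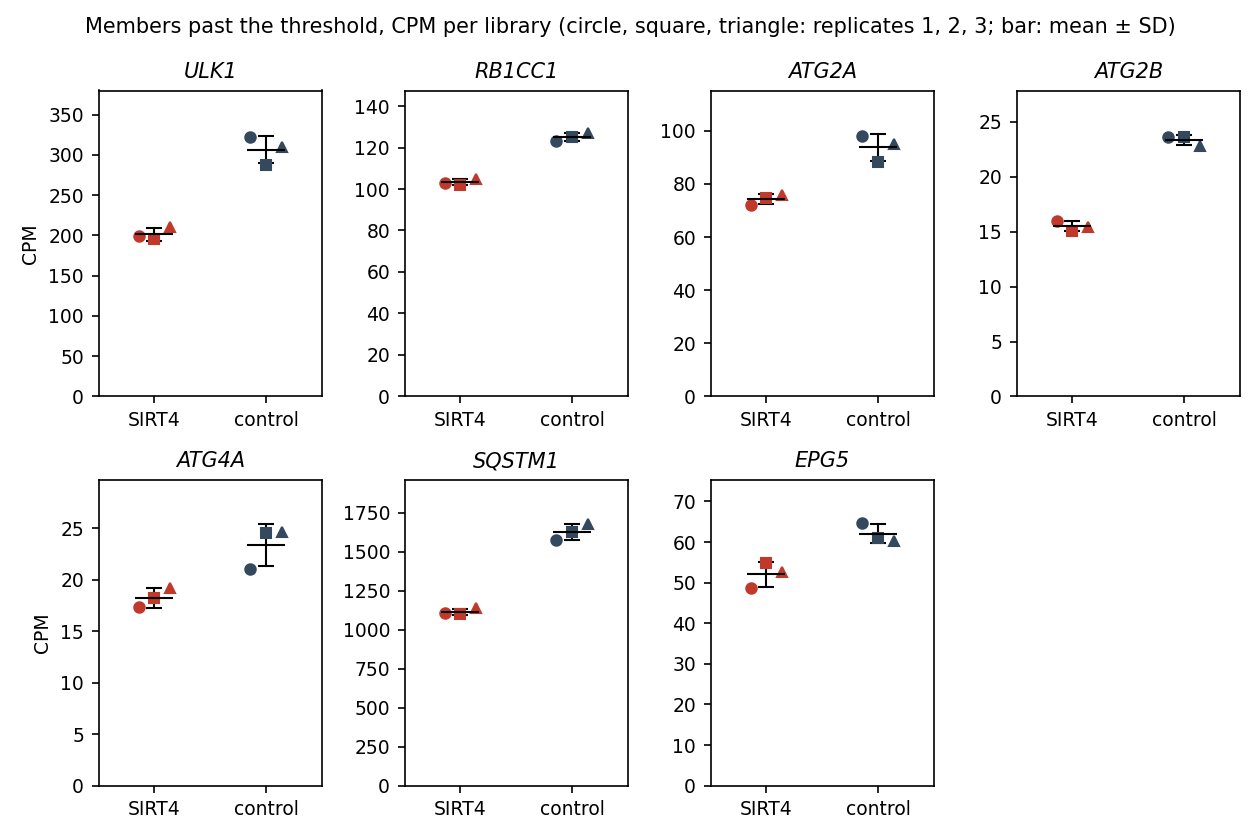
CPM (y axis, from 0) in each library of the 7 members past the threshold, SIRT4 left and control right; symbols are replicates 1 to 3 and bars the mean ± SD of 3 libraries. In each panel all 3 SIRT4 libraries lie below all 3 controls, with the closest approach in ATG4A, at 19.2 CPM in SIRT4 replicate 3 and 21.0 CPM in control replicate 1.

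None of the 6 conjugation genes passed by edgeR, DESeq2 or limma-voom. At an unadjusted p under 0.05 by edgeR 2 were higher and none lower, against 30.2% of all tested genes in either direction. ATG7 is the E1-like enzyme of the system. It was at 40.7, 34.2 and 40.8 CPM in SIRT4 libraries and 37.4, 37.9 and 36.4 CPM in controls, so the groups overlapped (log2 fold change 0.05, 95% interval -0.15 to 0.25). ATG5, which is joined to ATG12 to form the E3-like conjugate, was at 69.3, 72.1 and 71.3 CPM in SIRT4 libraries and 62.2, 67.6 and 60.2 CPM in controls. It had the smallest p of the step, with every SIRT4 library above the controls (log2 fold change 0.16, SE 0.06, edgeR adjusted p = 0.119). The E2-like genes ATG10 and ATG3 had log2 fold changes of 0.26 and -0.05, and ATG12 -0.06. ATG16L1, which places the conjugate on the membrane, was at 52.5, 56.4 and 50.5 CPM in SIRT4 libraries and at 40.8, 65.5 and 69.1 CPM in controls. Control replicate 1 lay below all SIRT4 libraries and the other controls above them. Without that library ATG16L1 was called lower (log2 fold change -0.34, edgeR adjusted p = 0.0328), against -0.14 and an edgeR adjusted p of 0.713 with it.

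ATG4 proteases trim newly made ATG8 proteins and release them from lipid. Of the 4 genes, 1 fell, against 7.67% of all tested genes. ATG4A was at 17.3, 18.2 and 19.2 CPM in SIRT4 libraries, against 21.0, 24.5 and 24.6 CPM in controls (log2 fold change -0.36, SE 0.10, edgeR adjusted p = 0.0389). The call was kept without control replicate 1 and lost without any of the other 5 libraries. The edgeR adjusted p was 0.114, 0.104 and 0.0734 without SIRT4 replicates 1, 2 and 3, and 0.107 and 0.124 without control replicates 2 and 3. ATG4B, the most active of the family on LC3, was at 75.5, 75.0 and 73.9 CPM in SIRT4 libraries and 77.3, 75.7 and 73.2 CPM in controls, a log2 fold change of -0.01 (95% interval -0.13 to 0.11). ATG4C and ATG4D were at -0.13 and -0.19 on the log2 fold change scale. ATG4A lies on GRCh38 chromosome X (108091668 to 108154671, plus strand).

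The ATG8 family itself varied more between replicates than most of the set. None of its 5 genes passed by edgeR. At an unadjusted p under 0.05 by edgeR 2 were lower, against 30.2% of all tested genes in either direction. DESeq2 and limma-voom each called 1. That gene was MAP1LC3B, whose LC3B protein is the usual marker of autophagosomes. It was at 126, 128 and 98.7 CPM in SIRT4 libraries, against 198, 150.2 and 239.9 CPM in controls. The groups did not overlap, but controls differed widely among themselves. The log2 fold change was -0.74 (SE 0.20, 95% interval -1.24 to -0.23), with an edgeR adjusted p of 0.0651. DESeq2 gave an adjusted p of 0.000285 and limma-voom 0.0337, while edgeR gave adjusted p = 0.0473 with the stricter filter and 0.0234 without control replicate 2. Over all 15 alternatives the adjusted p of MAP1LC3B ran from 0.000285 (DESeq2) to 0.179 (edgeR with a replicate block). FBXO31, whose exons overlap those of MAP1LC3B over 150 bases on the opposite strand, fell (log2 fold change -0.30, edgeR adjusted p = 0.0353), and the strand setting of the counting is not given. The near-identical copy MAP1LC3B2 was scarce, at 0.853 ± 0.0394 CPM in SIRT4 libraries and 1.99 ± 0.529 CPM in controls (SD, n = 3 each). MAP1LC3B2 was called lower (log2 fold change -1.22, SE 0.28, edgeR adjusted p = 0.0219). That call was kept under 9 of the 15 alternatives, and in only 1 of the fits with a library left out.

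MAP1LC3A was at 15.1, 11.6 and 24.5 CPM in SIRT4 libraries and 28.5, 22.9 and 23.3 CPM in controls. SIRT4 replicate 3 overlapped the controls (log2 fold change -0.54, edgeR adjusted p = 0.262), and without it the gene was called lower (-0.89, edgeR adjusted p = 0.0158). GABARAPL1 ranged from 9.54 to 37.0 CPM among SIRT4 libraries and from 11.0 to 29.4 CPM among controls. GABARAPL2 was steadier, at 45.8, 40.2 and 42.9 CPM in SIRT4 libraries and 46.0, 51.7 and 48.0 CPM in controls (log2 fold change -0.18, edgeR adjusted p = 0.162). GABARAP was at 52.7, 35.6 and 46.9 CPM in SIRT4 libraries and 52.7, 34.5 and 65.4 CPM in controls. An Ensembl gene without a symbol (ENSG00000262526) overlaps 691 bases of GABARAP exons, 30.5% of them, on the same strand. It was at 9.70, 23.8 and 15.9 CPM in SIRT4 libraries and at 16.3, 28.6 and 0 CPM in controls, high where GABARAP was low. Their sum was 62.4, 59.4 and 62.8 CPM in SIRT4 libraries and 69.0, 63.1 and 65.4 CPM in controls. The sum had a log2 fold change of -0.10 (SE 0.06, edgeR adjusted p = 0.321), with a much smaller spread than GABARAP alone (-0.17, SE 0.27). The pooled SD of log2(CPM + 0.5) within groups had a median of 0.39 over the ATG8 family and 0.10 over all 45 members. It was also 0.10 over the 10136 tested genes within the members' range of mean CPM.

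**Figure D3:**
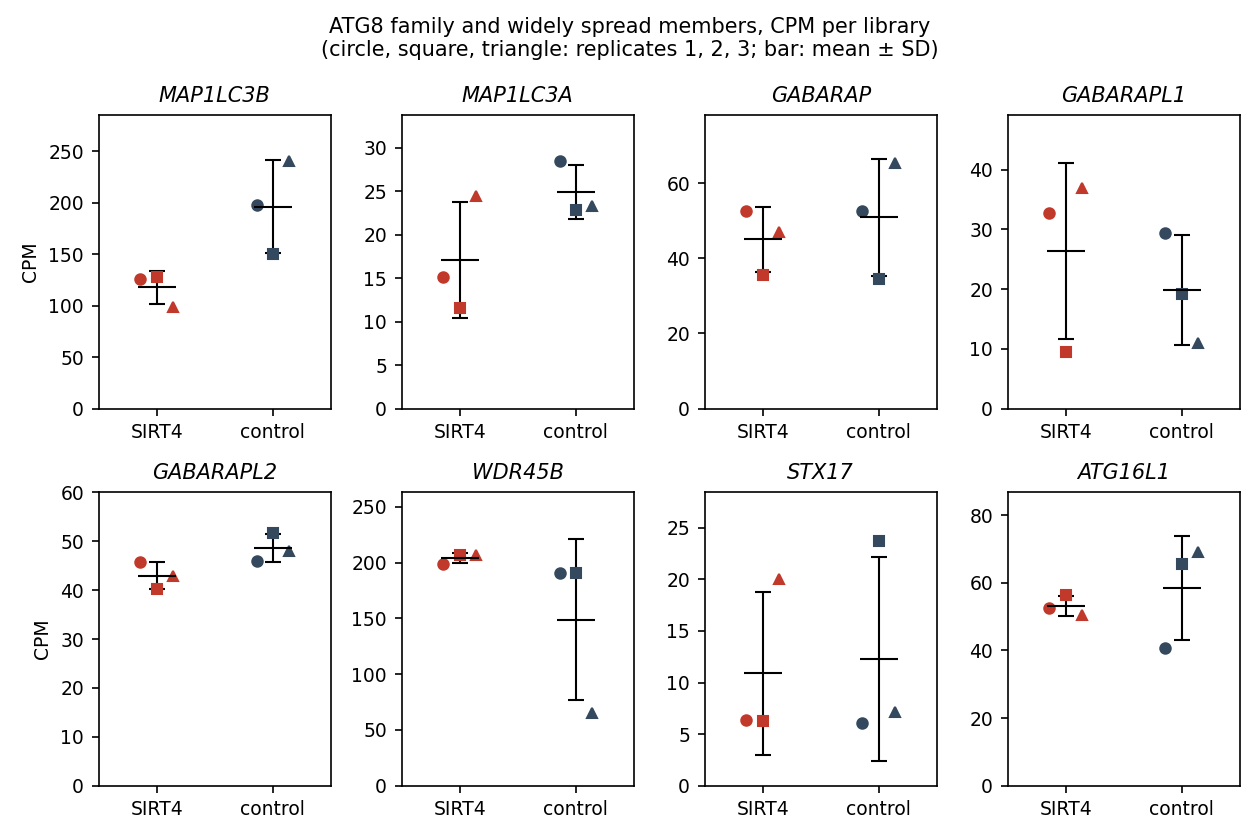
CPM (y axis, from 0) in each library of the 5 ATG8 genes and of WDR45B, STX17 and ATG16L1, SIRT4 left and control right; symbols are replicates 1 to 3 and bars the mean ± SD of 3 libraries. The groups do not overlap for MAP1LC3B, GABARAPL2 and WDR45B, although WDR45B has control replicate 3 at 65.3 CPM far below the other libraries; the groups overlap for STX17, where SIRT4 replicate 3 and control replicate 2 stand at 20.0 and 23.7 CPM.

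Of the 5 cargo receptors, SQSTM1 fell and the others did not pass, against 7.67% of all tested genes called lower. SQSTM1, which collects ubiquitinated cargo and is itself degraded by autophagy, was the most abundant member at 146 CPM per kb of exon in SIRT4 libraries and 212 in controls. Its level was 1107, 1102 and 1136 CPM in SIRT4 libraries, against 1577, 1623 and 1676 CPM in controls. The separation was wide against the spread within groups (log2 fold change -0.54, SE 0.03, edgeR adjusted p = 6.72e-05). SQSTM1 lies on GRCh38 chromosome 5 (179806398 to 179838078, plus strand), and 1582 bases of its exons, 20.7% of them, overlap MRNIP on the opposite strand. MRNIP also fell, to 58.3, 57.9 and 63.9 CPM in SIRT4 libraries, against 92.0, 93.6 and 90.1 CPM in controls (log2 fold change -0.61, edgeR adjusted p = 0.000437). Without a known strand setting, reads of the overlap cannot be assigned to either gene.

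NBR1, a receptor that works with SQSTM1, was at 92.1, 91.7 and 127 CPM in SIRT4 libraries and 131, 87.5 and 99.1 CPM in controls. TAX1BP1 and CALCOCO2 (NDP52), which also bind ubiquitinated cargo, were at -0.06 and 0.11 on the log2 fold change scale, with 95% intervals from -0.24 to 0.12 and from -0.05 to 0.27. OPTN, a mitophagy receptor, was at 0.02, with an interval from -0.15 to 0.20. All these groups overlapped.

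Neither transcription factor passed by edgeR, DESeq2 or limma-voom, and neither had an unadjusted p under 0.05. TFE3 was at 111, 106 and 115 CPM in SIRT4 libraries and 110.4, 108 and 116 CPM in controls, a log2 fold change of -0.01 (95% interval -0.13 to 0.12). TFEB was scarcer, at 10.1, 12.7 and 10.7 CPM in SIRT4 libraries and 11.4, 13.1 and 14.1 CPM in controls (log2 fold change -0.20, 95% interval -0.51 to 0.10, edgeR adjusted p = 0.357). Per kilobase of exon, TFE3 stood at 25.8 CPM in SIRT4 libraries and 26.0 in controls, and TFEB at 1.98 in SIRT4 libraries and 2.28 in controls. These are transcript levels, and both factors are known to be controlled largely by where the protein is held in the cell.

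At the fusion step, EPG5, which tethers autophagosomes to late endosomes and lysosomes, was at 48.6, 54.8 and 52.6 CPM in SIRT4 libraries, against 64.7, 61.0 and 60.3 CPM in controls. The SIRT4 libraries were all lower, by a log2 fold change of -0.25 (SE 0.07, edgeR adjusted p = 0.0368). The call was lost whichever library was left out, with edgeR adjusted p-values of 0.108, 0.0503 and 0.0973 without SIRT4 replicates 1, 2 and 3, and 0.111, 0.0675 and 0.0767 without control replicates 1, 2 and 3. EPG5 lies on GRCh38 chromosome 18 (45847609 to 45967339, minus strand). STX17, the SNARE of the autophagosome, was at 6.39, 6.25 and 20.0 CPM in SIRT4 libraries and 6.04, 23.7 and 7.13 CPM in controls. A single library in each group stood apart, and the 95% interval of the log2 fold change ran from -2.15 to 1.79.

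Autophagy genes outside the set moved in both directions. Of 49 further genes (fusion factors, selective receptors and regulators), 9 rose and 9 fell, 18.4% each way, against 9.38% and 7.67% of all tested genes. Their median absolute log2 fold change was 0.18, against 0.27 for all tested genes, and genes of like abundance were not compared. BNIP3L (NIX), a mitochondrial receptor of mitophagy, fell to 67.8, 65.7 and 67.4 CPM in SIRT4 libraries, against 101, 99.7 and 101 CPM in controls (log2 fold change -0.59, SE 0.05, edgeR adjusted p = 0.000209). PINK1, the kinase that marks damaged mitochondria for the same process, rose to 92.9, 88.3 and 93.3 CPM in SIRT4 libraries, against 67.1, 63.3 and 71.5 CPM in controls (log2 fold change 0.44, SE 0.06, edgeR adjusted p = 0.00250). EI24, a membrane protein of the endoplasmic reticulum, rose by 0.43 on the log2 scale (SE 0.05), and the fusion SNARE YKT6 by 0.30 (SE 0.04). The count of lower calls among the 49 was 5 when any of the 3 SIRT4 libraries or control replicates 1 or 2 was left out, and 8 without control replicate 3. The count of higher calls ran from 7 to 8 in the same fits.

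Among 30 lysosomal genes known as TFEB and TFE3 targets, 7 rose (23.3%) and 3 fell, against 9.38% and 7.67% of all tested genes. The median absolute log2 fold change of the 30 was 0.16, against 0.27 for all tested genes. Again, genes of like abundance were not compared. The sialidase NEU1 rose to 50.9, 50.8 and 51 CPM in SIRT4 libraries, against 31.9, 28.2 and 33.4 CPM in controls (log2 fold change 0.71, SE 0.08, edgeR adjusted p = 0.000817). The proteases CTSZ and CTSA rose by 0.44 (SE 0.05) and 0.27 (SE 0.04) on the log2 scale. PSAP, the precursor of the saposins that help degrade sphingolipids, fell to 3254, 3286 and 3249.7 CPM in SIRT4 libraries, against 4312, 4118 and 4278 CPM in controls (log2 fold change -0.38, SE 0.03, edgeR adjusted p = 0.000176). Without SIRT4 replicate 2, SIRT4 replicate 3 or control replicate 3, only 1 of the 30 was lower, and without any of the other 3 libraries 2 were. The list median log2 fold change was 0.05, against -0.02 for the 49 further genes and -0.06 for the 45 members. Across all tested genes, 1950 were higher and 1595 lower, and the lower count was 1021, 1058 and 978 without SIRT4 replicate 2, SIRT4 replicate 3 and control replicate 3.

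**Figure D4:**
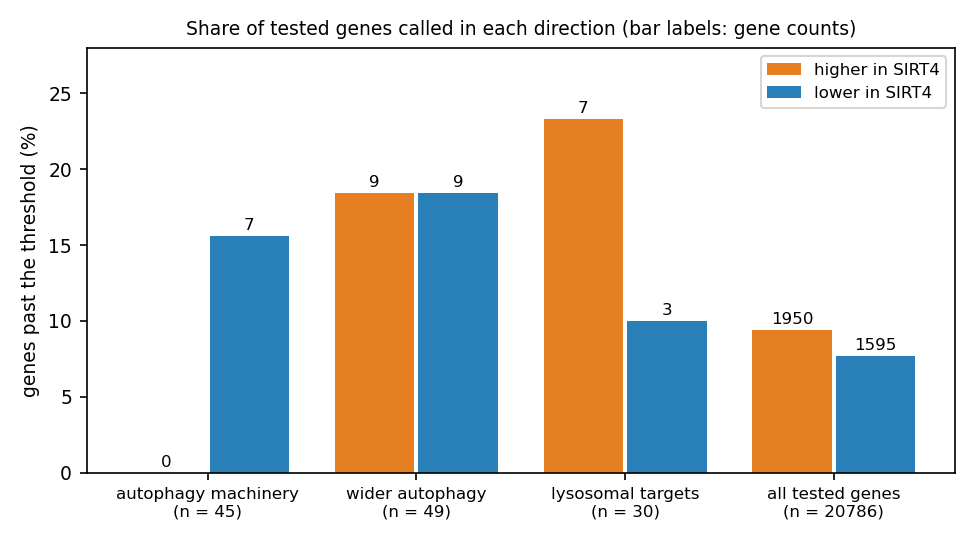
Share of tested genes past the threshold (y axis, percent) in each direction for the 45 autophagy genes, the 49 further autophagy genes, the 30 lysosomal genes and all 20786 tested genes; bar labels give gene counts. The 45 genes have no higher call and 7 lower, while the 49 have 9 each way and the lysosomal genes 7 higher and 3 lower.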

How the data were processed

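Gene expression was measured by RNA-seq in 3 SIRT4 and 3 control CAPAN-2 libraries. Per the labels' protocols, Trizol was used for total RNA and an NEBNext Ultra kit for the libraries. The submitters' processing notes name hg38, STAR, featureCounts, Subread and DESeq2 without versions or roles. The authors deposited whole numbers per Ensembl gene, treated here as estimated counts because their low values rise at 4 (in SIRT4 replicate 1, 784 genes at 3 and 1274 at 4). Their derivation is not stated in the labels.

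Gene names were matched by Ensembl identifier (60357 in a gene name table, 296 more in GENCODE 29), and GENCODE 29 also gave GRCh38 positions and exon lengths. CPM were computed on TMM-scaled totals, and edgeR 4.0.16 under R 4.3.3 fitted the 20786 genes that filterByExpr kept (robust quasi-likelihood, no covariates). An SE is the absolute log2 fold change over the square root of F, and 95% intervals use the fit's degrees of freedom. Alternatives used DESeq2 1.42.0, limma 3.58.1 (voom), other scalings and filters, division by 4, a replicate block and each library left out. An added alternative summed ATG9A, WDR45 and GABARAP with the gene that shares their exons, and was chosen after seeing the data. The fit was tested on simulated data.

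The members, lists and motifs were chosen with earlier results of these data known. By the naming rule, values per library are given for members past the threshold, for SQSTM1, MAP1LC3B, ULK1, BECN1, ATG5, ATG7, TFEB and TFE3, and for the smallest p of each step; other members shown per library, and MAP1LC3B2 and the overlapping genes, were chosen after their values were seen. Of the 49 further and the 30 lysosomal genes, up to 4 each with the smallest p are named. No library was left out.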

Additional observations from a re-analysis of the deposited data

How the results depend on the processing

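No member was called higher under any of the 15 alternatives, the added sum of genes that share exons included, and the count of lower members stayed between 5 and 8, with 5 under the replicate block. Of 105 fold changes of the 7 lower members under alternatives, 92 kept their call and 13 lost it, all 13 for ATG4A or EPG5. No direction of these 7 turned. Deviations from the group means correlated at 0.014, 0.0187 and -0.00931 for replicates 1, 2 and 3. Not every library correlated best with its own number. In a principal component analysis, however, PC2 (15.7% of the variance) ordered the replicates alike in both groups. Replicates 1, 2 and 3 lay at 21.1, -13.4 and -6.58 for SIRT4 and at 19.3, -25.4 and 5.03 for controls. The source of this shared order was not tested. Under the replicate block ATG4A had an edgeR adjusted p of 0.0592 and EPG5 of 0.0902, and 5 of the 49 further genes were lower in place of 9. SIRT4 passed with the DESeq2 Wald test (log2 fold change 0.64, adjusted p = 0.0392; 0.0392 to 0.2 over its alternatives). The shared-exon sums called 8 members lower, with WDR45 added.

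Leaving out each library in turn gave 978 to 1204 lower genes in all, 5 to 8 lower among the 49 and 1 to 2 lower among the 30 lysosomal genes. Some members turned sign, and none of these was called with all libraries. ATG9A (-0.02) and OPTN (-0.01) turned with library size only, and ATG9A with the shared-exon sum (-0.03). TFE3 (0.00) turned with DESeq2 size factors and the DESeq2 Wald test. With a library left out, log2 fold changes ranged from -0.03 to 0.01 for ULK2, from -0.07 to 0.05 for ULK3, from -0.12 to 0.06 for PIK3R4, from -0.14 to 0.01 for NRBF2, from -0.02 to 0.04 for ATG9A, from -0.10 to 0.03 for ATG3, from -0.34 to 0.00 for ATG16L1, from -0.03 to 0.01 for ATG4B, from -0.39 to 0.05 for GABARAP, from -0.19 to 0.15 for NBR1, from -0.03 to 0.08 for OPTN, from -0.03 to 0.03 for TFE3 and from -0.95 to 0.72 for STX17. Not all of these lay near no change. With all libraries the log2 fold change was -0.18 (SE 0.77) for STX17, -0.17 (SE 0.27) for GABARAP and -0.14 (SE 0.20) for ATG16L1. The cause of these changes was not tested. At 3 libraries per group, small changes can be missed, and where an interval spans 0, any change within it remains possible.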
